A study of Saccharomyces cerevisiae with 12 samples.

Results

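The response to rapamycin was measured in *tup1Δ*, the *TUP1* knockout of the yeast deletion collection, made in the BY4741 background, with 2 arrays of rapamycin-treated cells and 2 arrays of DMSO-treated cells. These are the arrays that the sample descriptions assign to the *tup1* deletion strain, 4 of the 12 arrays of the series. The other 8 are of the WT strain BY4741, 4 in rapamycin and 4 in DMSO. All groups carried the same auxotrophic alleles (*MATa his3Δ1 leu2Δ0 met15Δ0 ura3Δ0*), were grown in YPD to mid-log phase and were exposed for 30 min at 30°C to 100 nM rapamycin or to its solvent DMSO. The descriptions give 2 cultures of *tup1Δ* but do not say whether each was divided between the treatments, and they do not say how many clones of the strain were used. For WT the descriptions say that cultures were divided between DMSO and rapamycin. RNA of whole cultures was labeled with Cy3 and hybridized to 1-color NimbleGen arrays, and each gene has 1 log2 expression value per array.

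Rapamycin binds the protein Fpr1, and the complex inhibits the kinase complex TORC1, which promotes growth when nutrients are plentiful. Active TORC1 favors ribosome synthesis and keeps the GATA activators Gln3 and Gat1 from the genes of poor nitrogen sources, a state called nitrogen catabolite repression. When TORC1 is inhibited, genes for ribosome production are shut down, and transporters and enzymes for allantoin, urea, proline, GABA and ammonium are induced. Tup1 forms a corepressor complex with Cyc8 that is brought to promoters by DNA-binding repressors such as Mig1, Nrg1, Rox1 and Sko1, and represses genes of sugar use, hypoxia, stress and mating.

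The strain was checked first. *TUP1* (YCR084C) had log2 values of 8.23 and 7.95 in *tup1Δ* in rapamycin and 8.0 and 7.95 in *tup1Δ* in DMSO, against 13.66 to 14.04 in the 8 WT arrays. *LEU2*, *MET17* (also called *MET15*) and *URA3*, which the background lacks, lay between 7.89 and 8.06 in the *tup1Δ* arrays, so values near 8 are those of an absent transcript. *HIS3*, of which *his3Δ1* removes an internal stretch, lay between 13.00 and 13.36 in *tup1Δ* and is no check. The α-factor gene *MF(ALPHA)1* was at 8.0 to 8.02 in *tup1Δ*, and the receptor gene of **a** cells, *STE2*, at 13.70 to 13.93. *SAG1*, the α-agglutinin gene, was at 11.80 to 11.97 although it is usually listed as α-specific. Array medians ranged from 11.48 to 11.52 over the 12 arrays. The standard deviation across genes of the difference between the 2 replicates was 0.132 in *tup1Δ* in rapamycin and 0.0945 in *tup1Δ* in DMSO. Among WT arrays it was 0.0643 to 0.110 within replicates 1 and 2 or 3 and 4, except 0.214 for replicates 1 and 2 in rapamycin, and 0.243 to 0.287 between these pairs, so the WT arrays were alike in pairs.

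In *tup1Δ*, rapamycin raised most genes under nitrogen catabolite repression and part of the stress and autophagy genes, and lowered nearly all measured genes for ribosome assembly. Of the 5769 genes with values, 308 were higher (5.34%) and 376 were lower (6.52%), together 684 (11.9%), at a limma p-value adjusted by the Benjamini-Hochberg method under 0.05 and a log2 fold change of at least 1 in size. Calls in the gene lists are to be read beside these shares. The median log2 fold change was 1.36 among the higher genes, of which 48 reached 2, and -1.67 among the lower genes, of which 132 reached -2. The 2 arrays in rapamycin did not overlap the 2 in DMSO for any of the 684, but this was also true of 84.2% of all genes, and an exact permutation test of 2 arrays against 2 cannot give a two-sided p below 0.333. The calls therefore rest on the spread that limma estimated over all 12 arrays. By the adjusted p alone, 29.6% of genes were higher and 23.5% lower, so most responses were smaller than the fold threshold. The median log2 fold change over all genes was 0.03. The arrays had been normalized against each other, and RNA came from whole cultures, so fewer cells expressing a gene and less RNA per cell cannot be told apart.

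**Figure D1:**
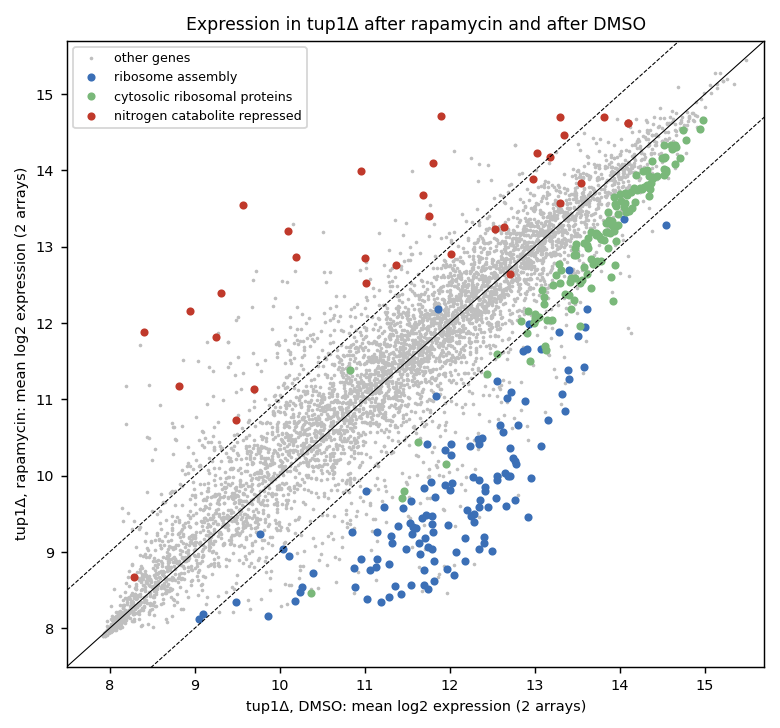
Mean log2 expression of each gene in *tup1Δ* in rapamycin (vertical axis, 2 arrays) against *tup1Δ* in DMSO (horizontal axis, 2 arrays). The solid line marks equal values and the dashed lines a log2 fold change of 1 in either direction. The ribosome assembly genes (blue) form a cloud below the lower dashed line, the cytosolic ribosomal protein genes (green) lie just below the diagonal at high expression, and most nitrogen catabolite repressed genes (red) lie above the upper dashed line.

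The largest rise was that of *DAL5* (YJR152W), which encodes the permease for allantoate and ureidosuccinate. Its log2 values were 13.52 and 13.58 in *tup1Δ* in rapamycin and 9.70 and 9.44 in *tup1Δ* in DMSO, a log2 fold change of 3.98 (standard error, SE, of 0.17, limma adjusted p = 1.14e-08). Of the 12 measured transporter genes under nitrogen catabolite repression, 9 were higher (against 5.34% of all genes), none was lower, and the median log2 fold change was 1.53. *UGA4*, the GABA permease gene, was at 12.13 and 12.20 in rapamycin and at 8.91 and 8.98 in DMSO, a log2 fold change of 3.22. *DUR3*, the urea and polyamine transporter gene, was at 13.93 and 14.05 in rapamycin against 10.93 and 10.99 in DMSO, a log2 fold change of 3.03. The ammonium permease gene *MEP2* reached 14.64 and 14.79 in rapamycin against 11.88 and 11.92 in DMSO, with 2.82. For each of these transporter genes both rapamycin arrays stood above both DMSO arrays. *MEP1*, another ammonium permease gene, rose by 1.64 on the log2 scale. *MEP3*, the remaining ammonium permease gene, had a log2 fold change of 0.997, just short of the fold threshold, and the peptide transporter gene *PTR2* (0.53) and *OPT1* (-0.06), an oligopeptide transporter gene, were not called either.

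*GAP1* (YKR039W), the general amino acid permease gene, and *PUT4* (YOR348C), the proline permease gene, were called higher from an already high level in DMSO. *GAP1* was at 14.67 and 14.74 in *tup1Δ* in rapamycin and at 13.26 and 13.33 in *tup1Δ* in DMSO, a log2 fold change of 1.41 (SE 0.10, limma adjusted p = 7.68e-07). In WT it was at 14.56 to 14.89 in rapamycin and 11.32 to 11.52 in DMSO, so the *tup1Δ* and WT arrays overlapped in rapamycin and lay apart in DMSO. The response was smaller in *tup1Δ* than in WT by 1.88 on the log2 scale (95% interval of the difference -2.16 to -1.60, limma adjusted p = 6.58e-06). *PUT4* was at 14.23 in both *tup1Δ* arrays in rapamycin and at 13.11 and 12.95 in DMSO, a log2 fold change of 1.21, against 12.95 to 13.23 in WT in rapamycin and 8.65 to 8.74 in WT in DMSO, a log2 fold change of 4.40. Its difference of -3.20 (95% interval -3.44 to -2.96, limma adjusted p = 3.36e-08) was the most negative of all called genes. *OPT2*, an oligopeptide transporter gene, differed in another way: its DMSO level was lower in *tup1Δ* (9.55 and 9.42) than in WT (9.79 to 10.09), and rapamycin brought it to 10.69 and 10.78 in *tup1Δ* and to 13.40 to 13.60 in WT. *ASN1*, the asparagine synthetase gene that the study also names, was at 15.09 and 15.10 in *tup1Δ* in rapamycin and 14.65 and 14.71 in DMSO, a log2 fold change of 0.41 that was not called.

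**Figure D2:**
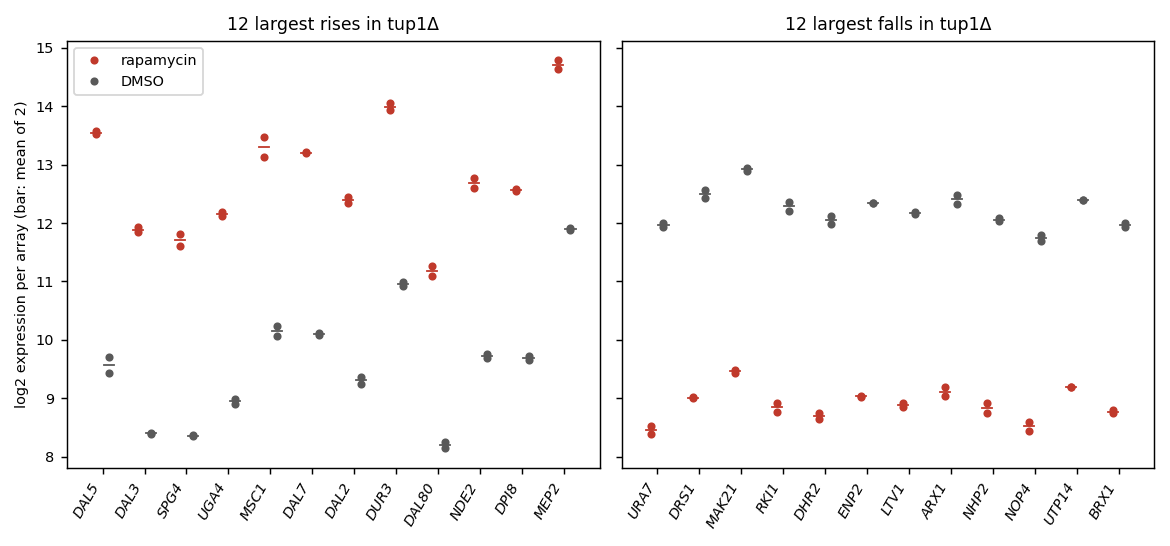
Log2 expression on each array for the 12 genes that rose most and the 12 that fell most in *tup1Δ*. Red points are the 2 arrays in rapamycin, grey points the 2 in DMSO, and bars the means. Among the falls, the arrays in rapamycin lie between 8.40 and 9.48 and those in DMSO between 11.69 and 12.95.

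The allantoin genes stand together on chromosome IX, and 5 of the 6 measured genes of the cluster were higher. *DAL3*, encoding ureidoglycolate lyase, was at 11.84 and 11.93 in *tup1Δ* in rapamycin and at 8.41 and 8.39 in DMSO, a log2 fold change of 3.49 (SE 0.11, limma adjusted p = 1.71e-09). *DAL7*, encoding malate synthase of the pathway, followed with 3.10, *DAL2*, the allantoicase gene, with 3.09, *DAL1*, the allantoinase gene, with 2.57, and *DAL4*, the allantoin permease gene, with 2.36. *DCG1*, which lies between *DAL2* and *DAL7* and whose function is not known, was at 8.69 and 8.66 in rapamycin and 8.25 and 8.33 in DMSO and was not called. Next to the cluster the pattern changed on both sides. *YVH1*, a phosphatase gene that also acts in 60S assembly, fell by 1.60 on the log2 scale, and *MGA2* had a log2 fold change of 0.36 that was not called. *DAL1* was the 1 gene of the cluster whose response differed between the strains at both thresholds, with a smaller rise in *tup1Δ* by 1.24 (limma adjusted p = 2.93e-05). For *DAL4* the difference was -0.91, for *DAL7* -0.83, for *DAL2* -0.55 and for *DAL3* -0.18 (95% interval -0.48 to 0.12).

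**Figure D3:**
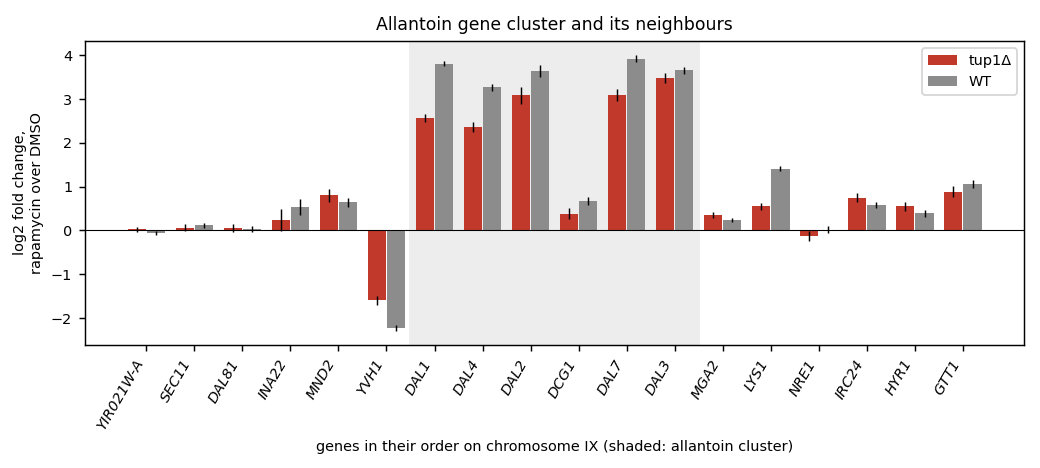
Log2 fold change of rapamycin over DMSO for the allantoin genes (shaded) and the measured genes on either side, in their order on chromosome IX. Red bars are *tup1Δ* (2 arrays per treatment), grey bars WT (4 arrays per treatment), and lines are standard errors from limma. The 5 tall bars of each strain drop at the borders of the cluster, where *YVH1* is below 0 in both strains.

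Of the 21 measured enzyme genes under nitrogen catabolite repression, which include the allantoin enzymes, 12 were higher (57.1%), none was lower and all 21 had a positive log2 fold change, with a median of 1.39. *ASP3-1*, 1 of several near-identical genes for secreted asparaginase that could share probes, was at 12.91 and 12.82 in *tup1Δ* in rapamycin against 10.11 and 10.26 in DMSO, a log2 fold change of 2.68. *DUR12*, encoding urea amidolyase, was at 14.13 and 14.06 in rapamycin and 12.05 and 11.56 in DMSO, a log2 fold change of 2.29. The proline oxidase gene *PUT1* rose by 2.00 and the GABA transaminase gene *UGA1* by 1.85. *CAR1* (0.88), *CAR2* (0.29) and *PUT2* (0.62), which act in arginine and proline breakdown, and *GLN1* (0.53), the glutamine synthetase gene, did not reach the fold threshold. Over both nitrogen lists, 28 of the 33 genes changed less in *tup1Δ* than in WT, against 3054 of all 5769 genes. In *tup1Δ* 21 were higher, none was lower and the median log2 fold change was 1.41, and in WT 25 were higher, 1 was lower and the median was 2.10. The difference itself was called for 7 with a smaller rise in *tup1Δ* (*PUT4*, *OPT2*, *GAP1*, *PUT1*, *DAL1*, *ASP3-1* and *CPS1*) and for *OPT1* in the other direction. The median level of the 33 genes was 13.26 in *tup1Δ* in rapamycin and 11.76 in *tup1Δ* in DMSO, against 13.55 in WT in rapamycin and 10.58 in WT in DMSO.

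Among 22 regulators of nitrogen use and TOR signaling, 3 were higher (13.6%, against 5.34% of all genes) and none was lower. *DAL80*, encoding a GATA repressor of the same genes, was at 11.09 and 11.27 in *tup1Δ* in rapamycin and at 8.25 and 8.14 in DMSO, with a DMSO mean of 8.19 within the range of deleted genes. Its log2 fold change is therefore a lower bound, at least 2.95 against the highest value of a deleted gene in *tup1Δ*, 8.23 (limma adjusted p = 1.36e-09). *UGA3*, the activator gene of the GABA genes, rose by 1.07, and *NPR1*, a kinase gene that stabilizes permeases, by 1.05. The value for *NPR1* was 0.99 without rapamycin replicate 1, below the fold threshold. *GLN3* (0.62) and *GAT1* (0.64), the activator genes, were not called. In the list of the retrograde response and the early TCA cycle, whose genes supply 2-oxoglutarate, 2 of 18 were higher (11.1%, against 5.34%). They were *CIT2*, the peroxisomal citrate synthase gene, at 14.02 and 13.96 in rapamycin against 11.74 and 11.38 in DMSO (log2 fold change 2.43), and *CIT1*, its mitochondrial counterpart, with 1.14.

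The falls were dominated by ribosome assembly. Of the 60 measured genes for the small-subunit processome and 40S assembly, 59 were lower (98.3%, against 6.52% of all genes) with a median log2 fold change of -2.17, and the remaining one, *RRP7*, had -0.80. Of 69 genes for 60S assembly, 62 were lower (89.9%), none was higher and the median was -2.35. The 7 that were not called ranged from -0.94 for *REA1* to 0.33 for *REH1*, the paralog of *REI1* in late 60S maturation. *REI1* itself fell by 1.88 on the log2 scale. *DRS1* (YLL008W), a DEAD-box helicase gene for 60S assembly, was at 9.02 and 9.0 in *tup1Δ* in rapamycin and at 12.57 and 12.43 in DMSO, a log2 fold change of -3.49 (SE 0.11, limma adjusted p = 1.71e-09). *MAK21*, also of the early 60S particle, had 9.43 and 9.48 in rapamycin against 12.95 and 12.90 in DMSO. The helicase gene *DHR2* of the small-subunit processome had 8.64 and 8.74 in rapamycin against 11.97 and 12.12 in DMSO. The groups were far apart for each of these genes, by more than 3 on the log2 scale between the nearest arrays.

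The 12 largest falls were those of *URA7*, *DRS1*, *MAK21*, *RKI1*, *DHR2*, *ENP2*, *LTV1*, *ARX1*, *NHP2*, *NOP4*, *UTP14* and *BRX1*, with log2 fold changes of -3.51 to -3.19. All but *URA7* and *RKI1* act in making ribosomes or in the particles that modify rRNA. *UTP14* was at 9.20 on both *tup1Δ* arrays in rapamycin and at 12.40 on both in DMSO, rounded to 0.01, but its standard error of 0.46 was the widest of the 12. In WT in DMSO it was at 11.56 and 11.61 in replicates 1 and 2 and at 12.88 and 12.82 in replicates 3 and 4, and this spread entered the shared estimate. The median over both assembly lists was -2.25 in *tup1Δ* and -2.31 in WT, and the difference was called for *ESF1* alone of the 129 genes. *ESF1*, a small-subunit processome gene, was at 10.21 and 10.25 in *tup1Δ* in rapamycin and at 12.81 and 12.69 in DMSO, against 12.12 to 12.69 in WT in rapamycin and 12.71 to 13.37 in WT in DMSO, so it fell by 2.52 in *tup1Δ* and its log2 fold change in WT was -0.53.

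RNA polymerase I, which makes the large rRNA precursor, lost transcripts of several subunits. Of 15 genes for the enzyme and its factors, 8 were lower (53.3%, against 6.52% of all genes) and none was higher. *RPA43* was at 8.67 on both arrays in rapamycin and at 11.85 and 11.88 in DMSO, a log2 fold change of -3.19 (limma adjusted p = 1.66e-09). *RPA34* fell by 3.12, *RPA49* by 3.06 and *RPA12* by 2.48, and the gene of the initiation factor Rrn3 by 1.47. Of 19 genes specific to RNA polymerase III and its factors, which make tRNA and 5S rRNA, 8 were lower (42.1%). They were led by *RPC53* (-1.76) and *RPC82* (-1.48). Both subunits shared by these polymerases were lower, *RPC40* by 1.39 and *RPC19* by 1.33.

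Genes for pyrimidine, CTP and ribose-phosphate synthesis followed the same direction, with 8 of 21 lower (38.1%, against 6.52% of all genes) and none higher. *URA7* (YBL039C), the main CTP synthase gene, fell most of all genes in *tup1Δ*. It was at 8.52 and 8.40 in rapamycin and 12.00 and 11.94 in DMSO, a log2 fold change of -3.51 (SE 0.13, limma adjusted p = 4.55e-09). *RKI1*, encoding ribose-5-phosphate isomerase, was at 8.92 and 8.77 in rapamycin and 12.21 and 12.37 in DMSO, with -3.45. The uracil permease gene *FUR4* fell by 2.37 and the dihydroorotate dehydrogenase gene *URA1* by 1.49. Of 23 purine synthesis genes, only *IMD4*, encoding an IMP dehydrogenase with close paralogs, was lower, by 2.11 (4.35% of the list, against 6.52% of all genes).

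Transcripts of cytosolic ribosomal proteins moved less. Of 133 measured genes, 21 were lower (15.8%, against 6.52% of all genes) and none was higher, with a median log2 fold change of -0.61. By the adjusted p alone 127 were lower, against 23.5% of all genes. Their median level was 13.17 in *tup1Δ* in rapamycin and 13.85 in *tup1Δ* in DMSO. The largest falls were those of *RPL22B*, at 8.49 and 8.45 in rapamycin and 10.39 and 10.34 in DMSO (log2 fold change -1.89), *RPL33B* (-1.80), *RPL7B* (-1.73), *RPL36A* (-1.66) and *RPS7B* (-1.63). Most of these genes have a near-identical copy that could share probes, so values of single copies are uncertain. Over the 55 measured pairs of copies, the B copy changed more negatively in 28, and the median difference of B minus A was -0.01. In WT the median was -1.0 and 68 of the 133 were lower. The log2 fold change was closer to 0 in *tup1Δ* for 129 of the 133, against 3054 of all 5769 genes. No single difference among the 133 reached both thresholds. By the adjusted p alone 5 had a positive difference, against 3.48% of all genes. The 70 mitochondrial ribosomal protein genes had no call in *tup1Δ* and a median of 0.13, with *MRPL16* at 0.997 the highest log2 fold change. Without *tup1Δ* DMSO replicate 1 (1.05) or rapamycin replicate 1 (1.08), *MRPL16* was called higher. Of 37 genes for translation factors, 6 were lower (16.2%, against 6.52% of all genes). They were led by *GCD10* (-2.39), a tRNA methyltransferase subunit gene, and the eIF3 subunit gene *NIP1* (-1.38). Of 21 tRNA synthetase genes, *YHR020W*, the cytosolic prolyl-tRNA synthetase gene, was lower by 1.10 (4.76% of the list, against 6.52% of all genes). Its log2 fold change was -0.98 without rapamycin replicate 2.

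The lists of amino acid metabolism held a few changes past the fold threshold. Counts by the adjusted p alone are to be read beside the shares over all genes, 29.6% higher and 23.5% lower. Of 24 genes for arginine, lysine and histidine, 5 were higher and none was lower, and by the adjusted p alone 13 were higher and 4 lower. *ARG1*, encoding argininosuccinate synthetase, was at 12.17 and 12.26 in *tup1Δ* in rapamycin and at 9.76 and 10.09 in DMSO, a log2 fold change of 2.29, and *ORT1* (1.48), *ARG4* (1.39) and *ARG3* (1.35) belong to the same pathway. Of 38 genes for branched-chain, aromatic and serine-family amino acids, 7 were higher and 15 lower by the adjusted p alone. With the fold threshold, *ARO10* rose by 2.36 and *ARO9* by 1.65. Both encode enzymes of aromatic amino acid breakdown. *LEU9*, encoding α-isopropylmalate synthase, fell by 1.83. Of 25 genes for sulfate assimilation and methionine, 4 were lower (16.0%, against 6.52% of all genes), led by the S-methylmethionine permease gene *MMP1* (-1.58). The reductase gene *MET16* of the same pathway was higher (1.15). By the adjusted p alone 14 of the 25 were lower and 3 higher. A further list held 17 amino acid permease genes that were not placed in the nitrogen catabolite repressed lists. Of these, the broad-range permease gene *AGP1* was at 14.34 and 14.18 in rapamycin against 12.00 and 12.10 in DMSO (log2 fold change 2.21). *DIP5*, for acidic amino acids, rose by 1.58, while the methionine permease gene *MUP1* fell by 1.35. The tyrosine and tryptophan permease gene *TAT1* fell by 1.18, but its adjusted p from limma was 0.0587 without DMSO replicate 2 and 0.0665 without rapamycin replicate 2.

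General stress genes were higher in 13 of 35 cases (37.1%) and lower in 1, with a median log2 fold change of 0.72. *MSC1* was at 13.13 and 13.47 in *tup1Δ* in rapamycin and at 10.07 and 10.24 in DMSO, a log2 fold change of 3.14, and the stress gene *DDR2* was at 13.05 and 13.35 in rapamycin against 10.50 and 10.53 in DMSO, with 2.69. *DCS2* rose by 2.54 and *CTT1*, encoding cytosolic catalase, by 1.91. *HSP12*, a membrane-associated heat shock gene, was high under both treatments, at 14.31 and 14.40 in rapamycin and 13.66 and 13.77 in DMSO, and its log2 fold change of 0.64 was not called. In WT it was at 11.12 to 11.87 in rapamycin and 9.11 to 9.36 in DMSO, and the difference of -1.79 was called (limma adjusted p = 0.00199). *HSP30*, which encodes a negative regulator of the plasma membrane H+-ATPase, fell by 1.02. It lost the call without DMSO replicate 2 (-0.88) or rapamycin replicate 1 (-0.97). Of 22 genes for trehalose and glycogen, 9 were higher (40.9%, against 5.34% of all genes) and the median was 0.93. By the adjusted p alone all 22 were higher, against 29.6% of all genes. *GPH1*, the glycogen phosphorylase gene, was at 13.56 and 13.54 in rapamycin and 11.81 and 11.73 in DMSO, and *PGM2*, the phosphoglucomutase gene, at 14.05 and 14.08 in rapamycin against 12.46 and 12.45 in DMSO.

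Of 40 autophagy genes, 12 were higher (30.0%) and none was lower, with a median log2 fold change of 0.74 in *tup1Δ* and 0.70 in WT. *ATG8*, encoding the ubiquitin-like protein of the autophagosome membrane, was at 10.64 on both arrays in rapamycin and at 8.75 and 8.74 in DMSO, a log2 fold change of 1.90 (limma adjusted p = 0.000255), followed by *ATG41* (1.61), *ATG34* (1.58) and *ATG9* (1.53). Among 15 genes for vacuolar hydrolases and their inhibitors, 4 were higher, led by the RNase gene *RNY1* (2.56) and the α-mannosidase gene *AMS1* (2.00). *NUC1*, a nuclease gene placed in this list although the enzyme is mitochondrial, fell by 1.41. None of 33 proteasome genes was called, and the largest log2 fold change was 0.49, for *PRE1*. No difference between the strains was called in the autophagy or proteasome lists.

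Transcripts for peroxisomal fatty acid oxidation, which yeast uses when glucose is gone, rose in part although the cells grew in glucose. Of 20 genes, 8 were higher in *tup1Δ* and none was lower, against 2 higher in WT. *POT1* (YIL160C), encoding 3-ketoacyl-CoA thiolase, was at 11.57 and 11.64 in *tup1Δ* in rapamycin and 9.82 and 9.56 in *tup1Δ* in DMSO, a log2 fold change of 1.92. In WT it was at 8.39 to 8.45 in rapamycin and 9.0 to 9.23 in DMSO, so the groups were ordered the other way (difference 2.60, 95% interval 2.35 to 2.86, limma adjusted p = 3.08e-07). *PXA2* (1.84), a fatty acid transporter gene, and the carnitine genes *CRC1* (1.82) and *CAT2* (1.66) were also higher in *tup1Δ*. *POT1* was the 1 gene of the list with a difference past both thresholds. By the adjusted p alone 8 of the 20 had a positive difference, against 3.48% of all genes. Among 24 gluconeogenic and glyoxylate genes, *ADY2*, an acetate transporter gene, rose by 1.71 in *tup1Δ* (difference from WT 1.47) and *ACS1*, an acetyl-CoA synthetase gene, by 1.59. Among 18 glycolytic genes, *PDC6*, a minor pyruvate decarboxylase gene, rose by 1.35. Of 42 respiratory genes, 6 were higher in *tup1Δ* (14.3%, against 5.34% of all genes). They were led by *NDE2*, the external NADH dehydrogenase gene, at 12.60 and 12.78 in rapamycin and 9.69 and 9.76 in DMSO (log2 fold change 2.96). *COX5B* (1.74) and *CYC7* (1.71), the hypoxic isoforms of cytochrome oxidase subunit V and of cytochrome c, came next.

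The stationary-phase list held 19 measured genes that are induced when cultures run out of nutrients. In *tup1Δ* 7 were higher (36.8%, against 5.34% of all genes) and in WT 4 (21.1%, against 5.41%). *SPG4* (YMR107W) was at 11.61 and 11.81 in *tup1Δ* in rapamycin and 8.38 and 8.35 in *tup1Δ* in DMSO, a log2 fold change of 3.35 (SE 0.07, limma adjusted p = 3.63e-10). In WT it was at 8.09 to 8.18 in rapamycin and 8.03 to 8.10 in DMSO, the range of absent transcripts, and the difference of 3.26 (95% interval 3.07 to 3.44) was the most positive of all called genes. *EGO4* behaved alike, at 11.06 and 11.33 in *tup1Δ* in rapamycin and 8.46 in both arrays in DMSO, against 8.33 to 8.56 in WT in rapamycin and 8.22 to 8.33 in WT in DMSO. *FMP45*, a membrane protein gene of the eisosome family, was at 12.44 and 12.65 in *tup1Δ* in rapamycin and 10.06 and 10.11 in DMSO, against 9.22 to 9.41 in WT in rapamycin and 9.01 to 9.21 in WT in DMSO. *SPS100*, a spore wall gene, was the other gene of this list with a called difference (1.26).

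**Figure D4:**
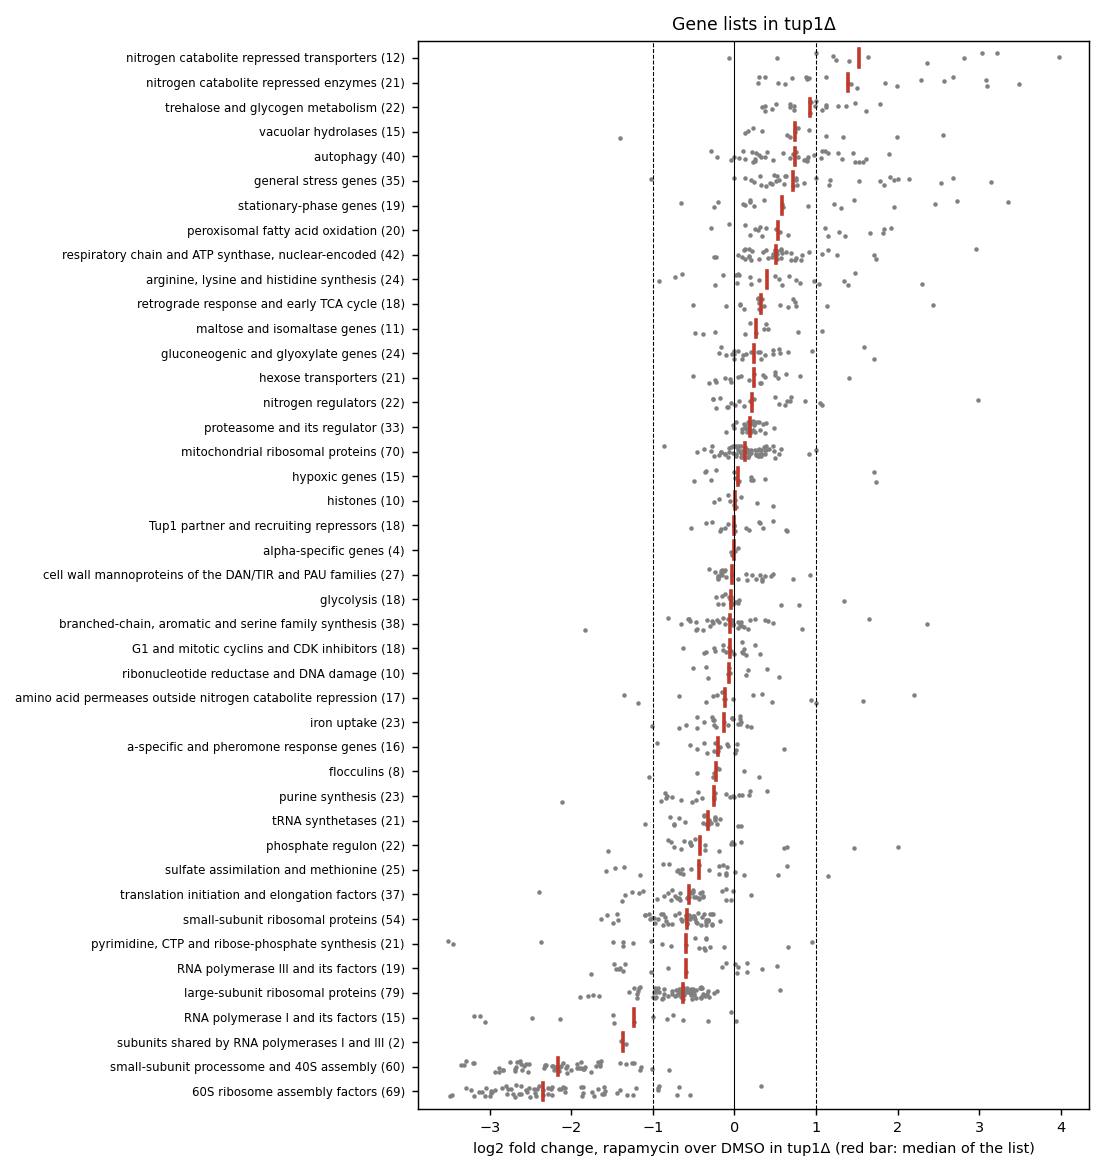
Log2 fold change of rapamycin over DMSO in *tup1Δ* for the members of each gene list (grey points, number of measured genes in parentheses), with the median of each list as a red bar and dashed lines at -1 and 1. Both nitrogen catabolite repressed lists are at the top with medians of 1.53 and 1.39, and both ribosome assembly lists at the bottom with -2.17 and -2.35. Most lists between them have medians within 1 of 0.

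The lists for hexose transport, maltose use, cell wall families, hypoxia, iron uptake, mating and the cell cycle held 0 to 2 calls each. With 5.34% of all genes higher and 6.52% lower, 1 or 2 calls in lists of this size do not set them apart. Among 21 hexose transporter genes, *HXT13* alone was higher (4.76%), at 11.32 and 11.63 in *tup1Δ* in rapamycin and 9.92 and 10.21 in DMSO (log2 fold change 1.41). Its near-identical copy *HXT17* had 0.54 and was not called, and because the copies could share probes both values are uncertain. Among 11 maltose and isomaltase genes, the activator gene *MAL13* rose by 1.07, or 0.90 without rapamycin replicate 1. The 27 measured genes of the DAN/TIR and PAU cell wall families had no call and a median of -0.02. Of 8 flocculin genes, *FLO11* fell by 1.04, which shrank to -0.94 without DMSO replicate 2 and -0.99 without rapamycin replicate 2, below the threshold. Of 15 hypoxic genes, *COX5B* and *CYC7* were higher. Of 23 iron uptake genes, *FRE4* (4.35%) fell by 1.01, and its value was -0.98 after quantile normalization, -0.95 without DMSO replicate 2 and -0.99 without rapamycin replicate 2. The 10 genes of ribonucleotide reductase and DNA damage, the 16 **a**-specific and pheromone response genes, the 4 α-specific genes, the 18 cyclin and CDK inhibitor genes, the 10 histone genes and the 18 genes for Tup1 partners and recruiting repressors had no call. *CYC8*, encoding the partner of Tup1, had a log2 fold change of 0.01 in *tup1Δ*. Of the 18 genes for Tup1 partners and recruiting repressors, 1 was lower in WT and 1 had a called difference between the strains. Differences were called for 2 of the hypoxic genes, 1 hexose transporter gene and 1 iron uptake gene. A gene can stand in more than 1 list.

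In the phosphate regulon, the genes for phosphate uptake and release, the strains were alike by the median, -0.42 in *tup1Δ* and -0.35 in WT. By the adjusted p alone, 4 of 22 genes were higher and 11 lower in *tup1Δ*, against 5 higher and 12 lower in WT. Over all genes in *tup1Δ* these shares were 29.6% higher and 23.5% lower. With the fold threshold, 2 were higher and 1 lower in *tup1Δ*, against 1 higher and 8 lower in WT. *GIT1*, the glycerophosphoinositol permease gene, was at 12.30 and 12.13 in *tup1Δ* in rapamycin and 10.23 and 10.18 in DMSO (log2 fold change 2.01), and *PHM8* rose by 1.47. The acid phosphatase gene *PHO3*, which has a close paralog, fell by 1.55. *PHO89* (YBR296C), the sodium-phosphate cotransporter gene, was at 12.98 and 13.06 in *tup1Δ* in rapamycin and 13.68 and 13.83 in *tup1Δ* in DMSO, a log2 fold change of -0.74 that was not called. In WT it was at 9.60 to 10.18 in rapamycin and 12.94 to 13.73 in DMSO, a log2 fold change of -3.45, and the difference of 2.71 (95% interval 1.98 to 3.44, limma adjusted p = 0.000616) was called. The difference was also called for *GIT1* (1.10), so 2 of the 22 differed between the strains.

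Set against WT, where 312 genes were higher (5.41%) and 450 lower (7.8%), the calls in *tup1Δ* were shared as follows. Of the genes higher in *tup1Δ*, 210 were also higher in WT, which is 68.2% of the *tup1Δ* list and 67.3% of the WT list. Of the genes lower in *tup1Δ*, 349 were also lower in WT, 92.8% of the *tup1Δ* list and 77.6% of the WT list. These comparisons share no arrays, but both used the spread of each gene estimated over all 12 arrays, so the calls are not independent. A gene called in 1 strain only need not differ between them: of the 124 genes called in *tup1Δ* only, the difference itself was called for 33. Only *CSS1*, at 10.54 and 9.85 in *tup1Δ* in rapamycin and 11.74 and 11.98 in *tup1Δ* in DMSO, was called in opposite directions, lower in *tup1Δ* (-1.67) and higher in WT (1.13).

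The response differed between the strains for 67 genes, 45 with a more positive change in *tup1Δ* (0.78% of all genes) and 22 with a more negative change (0.381%). By the adjusted p alone these shares were 3.48% and 2.29%. Without the dimmest 25% of genes the balance turned, with 14 more positive and 18 more negative. The group means enter the difference by which these genes were chosen, so the counts that follow only describe them. Shares of these counts over all genes were not computed. Of the 45, 32 were higher in *tup1Δ* and 33 were not called in WT, and in all 45 the mean in rapamycin was higher in *tup1Δ* than in WT. The mean in DMSO was higher in *tup1Δ* than in WT for 36 of the 45 and for 19 of the 22. Besides *SPG4*, *PHO89*, *POT1*, *EGO4* and *FMP45*, the largest were *SDH9* (2.21), a paralog of a succinate dehydrogenase subunit gene, *IME1* (2.04), the master regulator gene of meiosis, and *RGI2* (1.97), a gene of respiratory growth. *IME1* was at 10.64 and 10.65 in *tup1Δ* in rapamycin and at 8.84 and 8.87 in *tup1Δ* in DMSO, against 8.41 to 8.59 in WT in rapamycin and 8.66 to 8.77 in WT in DMSO. Of the 22, 8 were higher in *tup1Δ* and 19 in WT. After *PUT4*, *CSS1*, *OPT2*, *ESF1*, *GAP1* and *HSP12* came *YPL088W* (-1.68) and the amidase gene *AMD2* (-1.65). The difference for *YPL088W* had an adjusted p of 0.0251 from limma and lost the call when any 1 of the 4 *tup1Δ* arrays was left out (adjusted p of 0.0736 to 0.114). With only WT replicates 1 and 2 in the fit 77 genes differed, and with only replicates 3 and 4 99 did, a setting chosen after the data were seen.

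**Figure D5:**
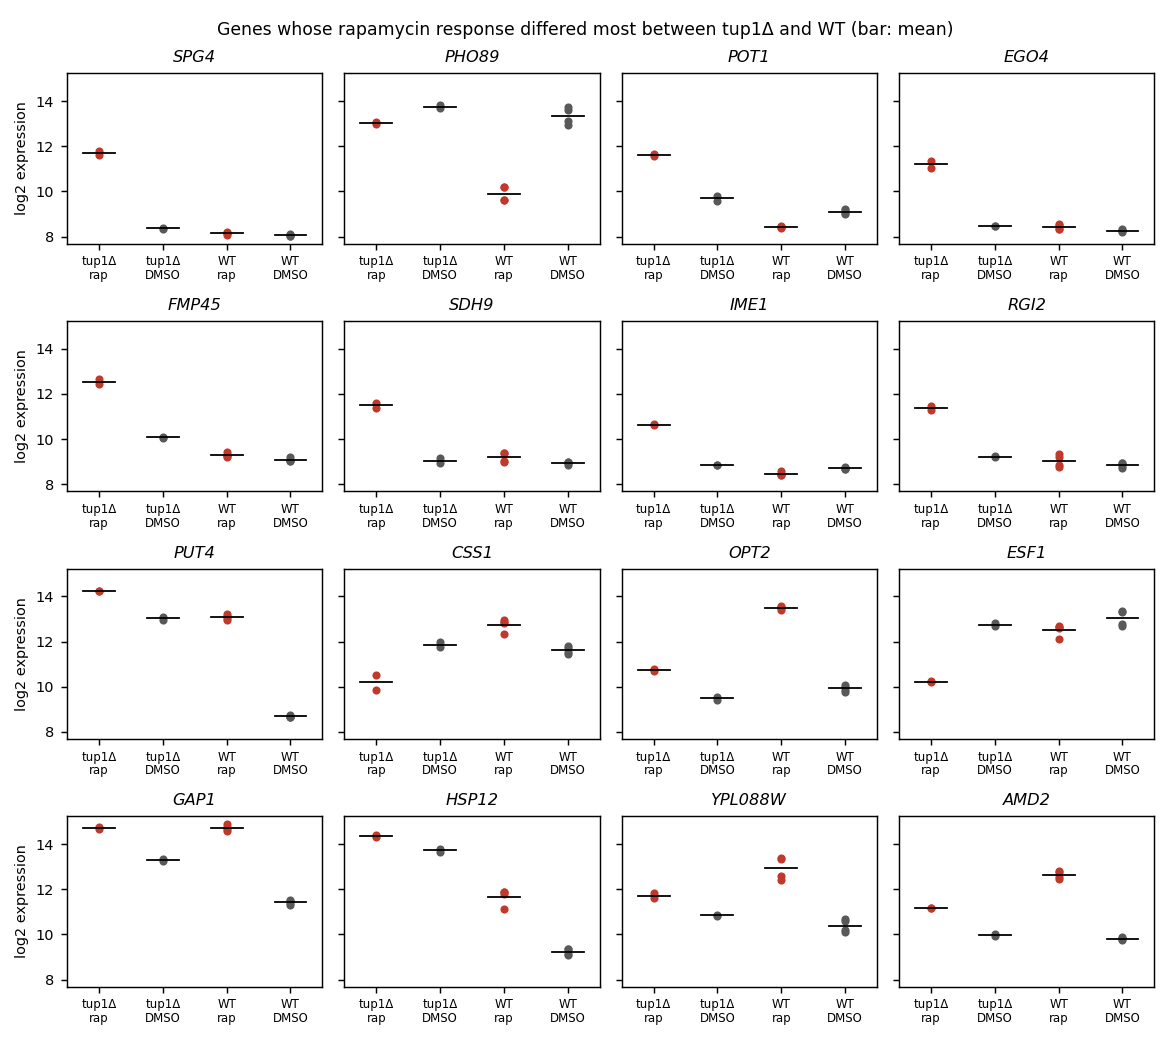
Log2 expression on each array (points) with group means (bars) for the 8 most positive and 8 most negative called differences between the strains. Each panel has 2 arrays of *tup1Δ* and 4 of WT per treatment, rapamycin in red and DMSO in grey. In the upper 8 panels except *PHO89*, the rapamycin arrays of *tup1Δ* stand above all other groups, and in *PUT4*, *GAP1* and *HSP12* the DMSO arrays of *tup1Δ* are already high.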

How the data were processed

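The authors scanned the arrays, quantified them with NimbleScan and applied RMA to them in 1 run with further arrays of the laboratory, and deposited log2 values, 1 per gene and array. Probe signals and detection flags were not used here, so a level near 8, that of deleted genes, was read as a limit. Entries empty on every array were left out, which left 5769 genes. A table of the R64 assembly named 5763 by ORF, and 6 kept their ORF name. The deposited log2 values were fitted in R 4.3.3 with limma 3.58.1 (lmFit, eBayes), with 1 mean for each of 4 groups over all 12 arrays. P-values were Benjamini-Hochberg adjusted across the 5769 genes. Calls needed an adjusted p under 0.05 together with a log2 fold change of 1 or more in size. The contrasts were rapamycin over DMSO in *tup1Δ* and in WT, and the first minus the second. Nothing shows whether *tup1Δ* replicates came from separate strains, so p-values measure the spread between these arrays. The fit was tested on simulated data with independent noise on each array. That test lacked the likeness of WT arrays in pairs and cannot show how the fit handles it.

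The comparison and the 43 gene lists were chosen with earlier results of these data known. Lists were described by counts and medians, with no set test. Named genes are the strain markers, the 12 largest rises and falls, the 8 largest strain differences in each direction, up to 4 members per list with the largest changes, called members that moved against their list, the allantoin cluster, *GAP1*, *ASN1* and genes called in opposite directions. Other names, given to complete a count, were chosen after their values were seen. Values were recomputed after quantile normalization or median centring, without the dimmest 25% of genes, with other thresholds, with an intensity trend and robust prior, with a replicate block, with 1 strain only and without each array.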

Additional observations from a re-analysis of the deposited data

Results flagged for a closer look

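The rapamycin response of 25 named genes differed between the strains by the test of the difference itself (limma, *tup1Δ* minus WT on the log2 scale, both thresholds), 14 with a more positive and 11 with a more negative change in *tup1Δ*. The positive ones were *SPG4* (3.26), *PHO89* (2.71), *POT1* (2.60), *EGO4* (2.55), *FMP45* (2.26), *SDH9* (2.21), *IME1* (2.04), *RGI2* (1.97), *RTN2* (1.64), *ADY2* (1.47), *NDE2* (1.22), *HXT13* (1.17), *GIT1* (1.10) and *CYC7* (1.02). The negative ones were *PUT4* (-3.20), *CSS1* (-2.80), *OPT2* (-2.33), *ESF1* (-1.99), *GAP1* (-1.88), *HSP12* (-1.79), *YPL088W* (-1.68), *AMD2* (-1.65), *STR3* (-1.28), *DAL1* (-1.24) and *ASP3-1* (-1.10). *NDE2* lost the call without *tup1Δ* DMSO replicate 1 or rapamycin replicate 2 (adjusted p of 0.0591 and 0.0627).

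For these 25 genes, 50 sets of 4 WT values (1 per treatment and gene) were examined, and 1 array stood apart in 3 of them. For 4 independent values per set about 2.5 would be expected. The WT arrays were alike in pairs, so that number does not apply to them. WT rapamycin replicate 1 lay far from the others for *IME1* (gap of 0.858 of the group's range), *ESF1* (0.848) and *HSP12* (0.908). Groups of 2 *tup1Δ* arrays were too small to be examined in this way. Without that array, each of these 3 differences kept its direction and passed both thresholds.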

How the results depend on the processing

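The counts for *tup1Δ* stayed within 1.5 times the main values after quantile normalization, median centring, a shift to the median gene, another prior, a replicate block or fits without some WT arrays. Without a fold threshold, 3062 genes were called in *tup1Δ* (1708 higher, 1354 lower), and the share higher turned to 55.8%, against 45.0% with it. At a threshold of 1.5 there were 344 (117 higher, 227 lower, 34.0% higher). Without the dimmest 25% of genes, fewer genes were tested and 201 were higher. In WT there were 3819 calls (2182 higher, 1637 lower, 57.1% higher against 40.9%) without and 395 (123 higher, 272 lower) with the threshold of 1.5. The difference between strains gave 333 genes (201 positive, 132 negative) without a fold threshold, 26 (17 and 9) at 1.5, and 32 (14 positive, 43.8% against 67.2%) without the dimmest genes. With only WT replicates 3 and 4 in the fit, chosen after seeing the data, 47 were negative and 52.5% positive. The cause of these shifts was not tested.

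Leaving out 1 array gave 653 to 714 calls in *tup1Δ* (291 to 324 higher, 362 to 390 lower, 44.6% to 45.4% higher), 738 to 797 in WT (299 to 334 higher, 438 to 465 lower) and 57 to 72 differences (39 to 46 positive, 17 to 27 negative). With 1 array left in a group, its spread is assumed to be that of the other groups. With culture as a replicate block there were 685 calls in *tup1Δ*, 762 in WT and 71 differences. Deviations of same-numbered *tup1Δ* arrays from their group means had a correlation of 0.0637 across genes. For same-numbered WT arrays, from divided cultures, it was 0.119 to 0.745. The likeness of WT arrays in pairs can enter the WT values, so they cannot show that cultures were shared. They are also not comparable with the *tup1Δ* value, from 2 arrays per treatment. The main fit did not use the division of WT cultures. Of 240 values for named genes, 10 took both signs over these settings, none of them called: the *tup1Δ* responses of *BAR1*, *SAG1*, *TUP1*, *MET17*, *MF(ALPHA)1* and *MF(ALPHA)2*, and the strain differences of *DRS1*, *ENP2*, *MAK21* and *NOP4*. Promoter motifs, and the other promoter window, were not run.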

Other observations

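Of the genes called in *tup1Δ*, 209 higher and 189 lower ones stood in no list. The following were picked after their values were seen. Among the lower ones were *NHP2* (-3.23), *SYO1* (-3.18), a chaperone gene for ribosomal protein import, *MRD1* (-3.17), which acts in rRNA processing, and *TOD6* (-2.94), whose protein represses ribosome biogenesis genes. *MTR4*, the helicase gene of the nuclear exosome, had -2.88. Among the higher ones were *DPI8* (2.89), *NQM1* (2.61), a transaldolase paralog, *PDH1* (2.59), of propionate use, *GUD1* (2.57), the guanine deaminase gene, and *SRL3* (2.50), a paralog of the cell cycle inhibitor gene *WHI5*.

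Near chromosome ends, *HSP32*, *HSP33* and *SNO4*, near-identical relatives of the glyoxalase gene *HSP31*, rose in *tup1Δ* by 1.70, 1.67 and 1.77 on the log2 scale. *SNO4* was at 11.64 and 11.81 in rapamycin and 9.91 and 9.99 in DMSO. The enolase-related genes *ERR1* and *ERR3* rose by 1.77 and 1.71. In WT these 5 had log2 fold changes of 0.20 to 0.43, and the difference between strains was called for each (1.26 to 1.56, limma). Copies within each family could share probes, so they may not be separate measurements.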
